A study of Mus musculus with 2 samples.

Results

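The ISG15 conjugation system was described in stimulated mouse bone marrow-derived macrophages through 6 genes: the modifier Isg15, the activating enzyme Uba7, the conjugating enzyme Ube2l6, the ligases Herc6 and Trim25, and the protease Usp18. They were chosen by their known role in the pathway, by symbol, with earlier results of these data known. All 6 were found among the 55536 gene rows of both gene tables. Macrophages grown in culture from bone marrow of C57BL/6J mice received 100 ng/mL of a stimulus for 300 min, and polyadenylated RNA of whole-cell extracts was sequenced. The labels name the stimulus as Lipid A in 1 field and as lipoprotein A, a protein, in others. The 2 libraries, replicate 1 and replicate 2, are separate biosamples that share a donor record, and sex and age were not collected. No unstimulated library was analysed here, so every value below is a level after stimulation and none is a response to it.

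ISG15 is a ubiquitin-like protein, induced by interferon, that is attached to lysines of other proteins through the same kind of enzyme chain as ubiquitin. UBA7 (E1) activates it, UBE2L6 (E2) carries it, and a ligase (E3) passes it to the target, a role taken mainly by HERC6 in mouse, while USP18 cuts it off again. In macrophages the system is known as part of the antiviral programme that follows type I interferon, which macrophages themselves release after Toll-like receptor signals.

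The libraries held 38078399 expected counts in replicate 1 and 63705317 in replicate 2. All 8 macrophage markers reached 1 TPM (a level per transcript length, relative to all transcripts of the library) in both libraries, with summed levels of 15673 and 21714 TPM in replicates 1 and 2. Of 7 neutrophil markers, S100a8 and S100a9 did so, and the list summed to 455 TPM in replicate 1, against 16.4 in replicate 2. Ltf had 7.45 TPM in replicate 1, against 0.35 in replicate 2, and Camp 3.08 against 0.05. Mpo had 0.66 against 0.09 and Elane 0.74 against 0.1. All of the list were thus higher in replicate 1 except Ly6g, which was at 0 in both. No marker of T cells, B cells, NK cells, dendritic cells, erythroid cells or fibroblasts reached 1 TPM in both libraries. The part of the neutrophil transcripts in any difference between the libraries below was not tested. In bulk RNA, fewer cells of a type and less RNA per cell cannot be told apart.

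All 6 genes were above 100 TPM in both libraries. Isg15, which encodes the modifier, was the highest by TPM. It had 2507 TPM in replicate 1, against 1667 in replicate 2, from 29981 and 34978 expected counts, a mean of 2087 ± 594 TPM (SD, n = 2). By expected counts, which grow with transcript length, it was the highest of the 6 in replicate 1, while in replicate 2 Trim25 (39073) and Usp18 (35402) had more. Among 22028 protein-coding genes it ranked 42 in replicate 1 and 70 in replicate 2. The gene (ENSMUSG00000035692.6) lies on the minus strand of mm10 at chr4:156199424-156200818 and has 1 annotated transcript, of 756 bases.

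The 250 bases upstream of the Isg15 start site are shown because they hold matches to the core of the interferon-stimulated response element (ISRE), the kind of site through which interferon is known to act on promoters. The sequence is RefSeq's for GRCm38.p6, chr4:156200819-156201068 on the minus strand, 5′ to 3′, and capitals mark the letters covered by ISRE core matches.
Isg15 promoter: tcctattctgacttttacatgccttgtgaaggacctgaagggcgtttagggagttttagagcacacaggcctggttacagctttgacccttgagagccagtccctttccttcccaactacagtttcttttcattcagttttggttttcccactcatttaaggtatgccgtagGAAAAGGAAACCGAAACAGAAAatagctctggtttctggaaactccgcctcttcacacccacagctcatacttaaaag

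The core searched was GAAA, then any 2 bases, then GAAA, on both strands of a window of 250 bases before to 50 bases after the start site. In Isg15 it matched at 3 overlapping places whose first bases lie 78, 72 and 66 bases before the start: GAAAAGGAAA, GAAACCGAAA and GAAACAGAAA. Of 32851 mouse promoters of the same length in the RefSeq table, 3.44% held the core. Promoters of 5 of the 6 genes were matched there. Those of Uba7, Ube2l6, Herc6 and Trim25 had no letters matching this core in the window, and none of the 5 held TTCNNNGAA (in 8.3% of all promoters) or TATAAA (in 13.6%). The RefSeq start site lay 33 bases from the start of the leading transcript for Uba7, 27 bases for Trim25, 8 bases for Herc6 and 0 bases for Isg15 and Ube2l6. Only exact matches were counted, so a site that differs from the core by a letter is not in these results. These matches describe letters in a window, and binding was not measured.

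Uba7, the E1, was the lowest of the 6 and nearly equal in the libraries. Its level was 138 TPM in replicate 1, against 142 in replicate 2, from 7920 and 14288 expected counts, a mean of 140 ± 2.79 TPM (SD, n = 2). It ranked 998 and 996 among protein-coding genes. The gene (ENSMUSG00000032596.14) lies on the plus strand at chr9:107975505-107984060.

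Ube2l6, the E2, was higher in replicate 2. It had 206 TPM in replicate 1, against 385 in replicate 2, from 6525 and 20662 expected counts, a mean of 296 ± 126 TPM (SD, n = 2). Its rank was 703 in replicate 1 and 391 in replicate 2. The gene (ENSMUSG00000027078.14) lies on the plus strand at chr2:84798828-84810335.

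The ligases had similar means and opposite orders in the libraries. Herc6, a HECT-type ligase and the main ISG15 ligase of mouse, had 256 TPM in replicate 1, against 145 in replicate 2, from 26034 and 25262 expected counts, a mean of 200.4 ± 78.4 TPM (SD, n = 2). Trim25, a RING-type ligase also known as a cofactor of the RNA sensor RIG-I, had 180 TPM in replicate 1, against 283 in replicate 2, from 19096 and 39073 expected counts, a mean of 232 ± 73.0 TPM (SD, n = 2). Herc6 was thus 1.42 times the level of Trim25 in replicate 1 and 0.512 times in replicate 2, and no order between them can be given. Herc6 (ENSMUSG00000029798.11) lies on the plus strand at chr6:57581000-57664632, and Trim25 (ENSMUSG00000000275.16) on the plus strand at chr11:88999376-89020293.

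Usp18, the protease that removes ISG15 and, apart from that activity, holds back interferon receptor signalling at IFNAR2, was the second highest. It had 530 TPM in replicate 1, against 574 in replicate 2, from 19510 and 35402 expected counts, a mean of 552 ± 31.5 TPM (SD, n = 2). It ranked 273 and 247. The gene (ENSMUSG00000030107.10) lies on the plus strand at chr6:121245906-121270917.

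**Figure D1:**
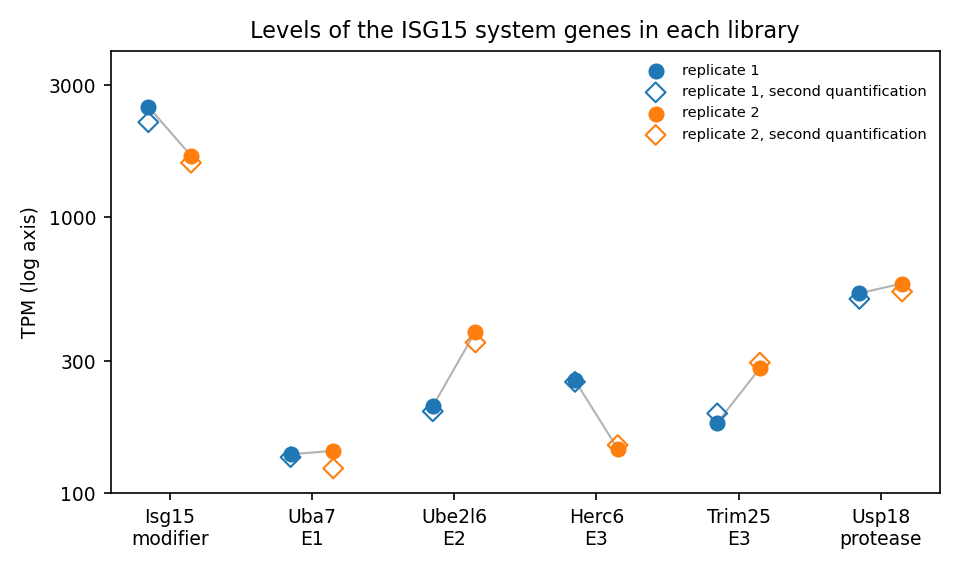
Level in TPM (log axis) of the 6 genes in replicate 1 (left point of each pair) and replicate 2 (right point), as filled circles from the gene tables and open diamonds from a second quantification of the same reads. Isg15 stands between 1572 and 2507 TPM, Usp18 between 505 and 574 TPM, and the other 4 genes between 123 and 385 TPM.

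In 12 of the 15 pairs of members the order was the same in both libraries and in both quantifications, and the ranges over the libraries did not overlap. Isg15 was above Usp18, and Usp18 above the other 4 genes, by this rule. The order of Ube2l6 and Trim25 was also the same in both libraries, but their ranges overlapped. Herc6 changed places with Ube2l6 and with Trim25 between the libraries. Uba7 was below each of the others, but in replicate 2 by little from Herc6, at 142 and 145 TPM. With 2 libraries an exact permutation test cannot pass a threshold of 0.05, so these orders are described and not tested.

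The modifier exceeded the E1 by the widest margin. Isg15 was 18.1 times Uba7 in replicate 1 and 11.7 times in replicate 2. Over Ube2l6 the ratio was 12.1 and 4.33 in replicates 1 and 2. It was 9.80 and 11.5 over Herc6, 13.9 and 5.88 over Trim25, and 4.73 and 2.90 over Usp18. These are ratios of levels per length within a library, in which the library total cancels. Isg15 made up 65.7% of the summed 3817 TPM of the 6 genes in replicate 1, and 52.1% of 3196 TPM in replicate 2. Set against the sum of the other 5 genes, it was 1.91 times in replicate 1 and 1.09 times in replicate 2. Usp18 was 3.83 and 4.04 times Uba7, the steadiest of the ratios given here. Ube2l6 was 1.49 times Uba7 in replicate 1 and 2.70 times in replicate 2.

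Each gene was then placed in its own family, as lists of symbols. Isg15 ranked first by mean TPM of 14 ubiquitin and ubiquitin-like modifier genes, above the polyubiquitin gene Ubb with 774 and 939 TPM in replicates 1 and 2. The lowest of this list was Ubd, which encodes the modifier FAT10, at 2.33 and 0.85 TPM. In the second quantification Isg15 came second by mean TPM, so its rank among modifiers differed between the quantifications.

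Among the enzymes, Uba7 ranked second of 9 E1 genes by mean. Uba1, the main ubiquitin E1, had 119 TPM in replicate 1, against 211 in replicate 2. Uba7 was thus the higher in replicate 1 and the lower in replicate 2. These are levels of whole genes, and the coding transcript of Uba7 alone had 54.9 and 33.65 TPM in replicates 1 and 2. Uba6, which activates ubiquitin and FAT10, was the lowest by mean, at 20.5 and 9.56 TPM in replicates 1 and 2, although Atg7 was below it in replicate 1 at 15.7 TPM. Ube2l6 ranked second of 36 UBE2 genes, below Ube2d3, a ubiquitin E2 that works with many ligases, at 585 and 1425 TPM. Its closest relative Ube2l3, at 216 and 333 TPM, was above it in replicate 1 and below it in replicate 2.

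Both ligases were high in their families. Herc6 ranked first of 5 HERC genes in both libraries. The next by mean was Herc1, a giant member, at 20.9 and 26.2 TPM in replicates 1 and 2, although Herc4 was above it in replicate 1 at 24.5 TPM. The lowest was Herc3 at 1.64 and 2.2 TPM. By mean Trim25 ranked 4 of 68 TRIM genes, behind 3 members of the mouse Trim30 cluster. In replicate 2 it was above one of these, Trim30d, at 192 TPM, and below Trim21, at 288 TPM. Of these Trim30c had 552 and 588 TPM and Trim30a, known in mouse as a brake on Toll-like receptor signals, had 612 and 456 TPM. The Trim30 genes are near copies of one another, so the division of reads among them is uncertain.

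Usp18 ranked first in both libraries of 56 genes taken by a Usp symbol, most of which encode deubiquitinases. Usp25 followed at 192 TPM in replicate 1, against 161 in replicate 2. Of these USP genes, 39 reached 1 TPM in both libraries, and the lowest, among them Usp26, had no counts at this depth. The same held in the UBE2 list, where 29 of 36 reached 1 TPM and Ube2u had no counts, and in the TRIM list, where 30 of 68 reached 1 TPM and Trim10 had no counts.

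**Figure D2:**
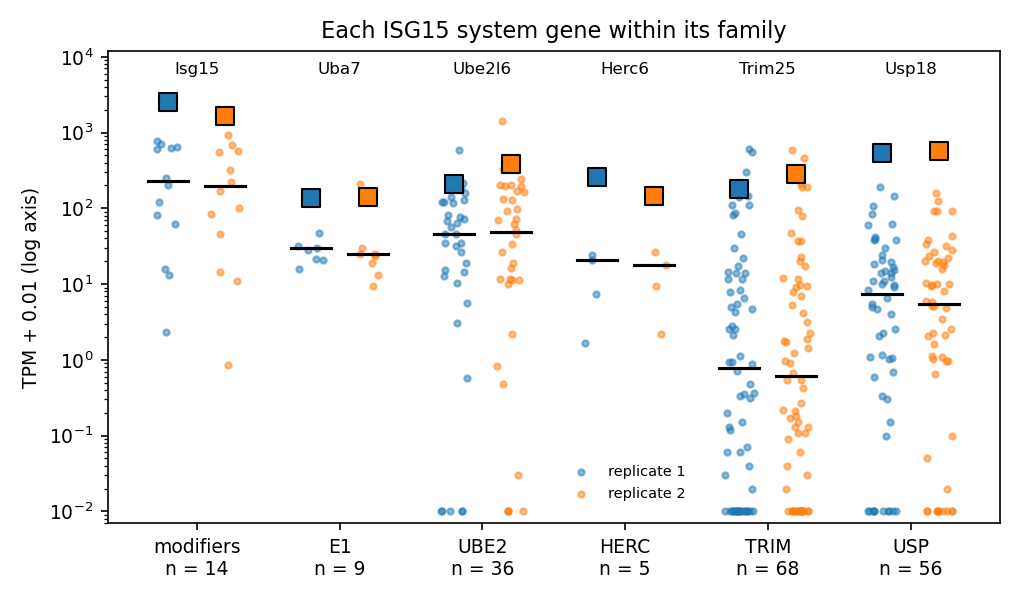
TPM + 0.01 (log axis) of every gene of the 6 families, as dots for the relatives and as large squares for the ISG15-system gene, with replicate 1 left of replicate 2 and bars at the family's median. Isg15, Herc6 and Usp18 sit at the top of their families in both libraries, Uba7 and Ube2l6 rank second by mean, and Trim25 ranks 4 of 68 TRIM genes by mean.

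In the transcript tables, Ube2l6, Usp18 and Herc6 consisted mostly of a single coding form, as Isg15 does by annotation. Ube2l6-201 held 98.15% of the gene's TPM in replicate 1 and 99.1% in replicate 2. Usp18-201 held 98.1% and 97.8%. Herc6-201 held 86.2% and 89.8%, and most of the rest was in 4 retained-intron transcripts, at 11.2% and 9.70%. Trim25 and Uba7 differed from these.

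Trim25 was divided between a pair of coding transcripts. Trim25-203, which encodes the full protein of 634 codons, had 133 TPM in replicate 1, against 148 in replicate 2. Trim25-202, which stops after 387 codons, had 46.6 TPM in replicate 1, against 136 in replicate 2. The short form thus made up 25.9% of Trim25 TPM in replicate 1 and 47.9% in replicate 2. By the second quantification its share was 36.4% and 58.1%, again higher in replicate 2. The full-length form changed little between the libraries in either quantification, at 124 TPM in both libraries by the second.

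The transcripts split at the end of exon 5, and the sequence there is shown because it sets where the short form stops. The last 30 shared bases are in lower case and the bases that follow are in capitals, from GENCODE M21 transcripts on the plus strand of mm10, 5′ to 3′. Trim25-202 reads on through chr11:89013509-89013546 to a stop codon at 89013544 to 89013546. Trim25-203 leaves exon 5 at base 89013538 and goes on with exon 6 at 89015167 to 89015190.
Trim25-202: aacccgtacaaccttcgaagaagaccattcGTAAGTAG
Trim25-203: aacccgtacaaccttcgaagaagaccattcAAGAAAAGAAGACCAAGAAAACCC

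The capitals of Trim25-202 thus open with GT, where Trim25-203 has its splice donor, and end with the stop codon TAG. The short form has 5 exons and 1433 bases, of which the first 1269 are those of the 5590-base full form with 9 exons. Only 164 bases are its own. It lacks the last coding exon, with 524 coding bases, which holds the SPRY domain by which TRIM25 binds RIG-I. With so few bases of its own, the division of reads between the forms rests mostly on shared sequence, and no interval for it is given in the files.

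**Figure D3:**
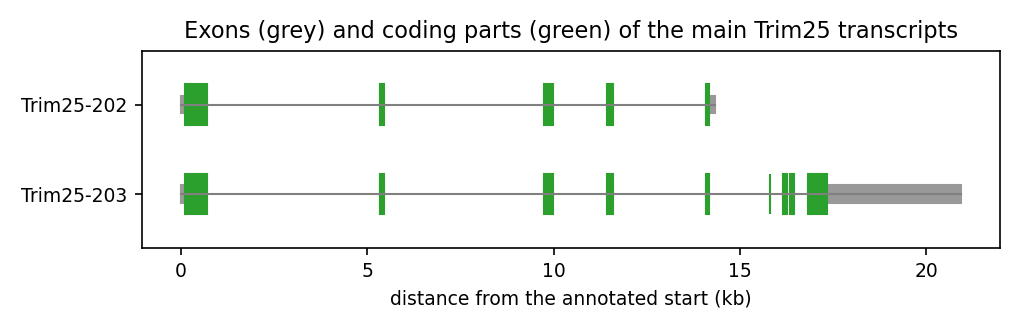
Exons (grey) and coding parts (green) of the Trim25 transcripts, drawn to scale by distance in kb from the annotated start. Trim25-202 shares the first exons of Trim25-203 and ends inside an extended exon 5, without the later coding exons.

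Uba7 had 15 annotated transcripts and a minority of its TPM in the coding one. Uba7-201, with 977 codons, had 54.9 TPM in replicate 1, against 33.65 in replicate 2, which was 39.7% and 23.65% of the gene. Its expected counts were 4008 and 4083, so they barely differed although replicate 2 had the greater total. By expected counts, which grow with transcript length, its share of the gene was 50.6% in replicate 1 and 28.6% in replicate 2. The transcripts annotated for nonsense-mediated decay, a pathway that removes RNAs with early stop codons, held 14.3% of Uba7 TPM in replicate 1 and 38.1% in replicate 2. Most of that difference lay in Uba7-211, at 2.07 TPM in replicate 1, against 28.0 in replicate 2. By the second quantification Uba7-211 was at 4.72 and 22.6 TPM. The 10 retained-intron transcripts held 40.6% and 36.5%. By these estimates, the near-equal level of the Uba7 gene covered a coding form lower in replicate 2 and decay-annotated forms higher there. The division of reads among the 15 transcripts is uncertain, and no interval for it is given. For example, Uba7-212 had 15.4 TPM in replicate 2 by the first quantification and 2.00 TPM by the second.

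**Figure D4:**
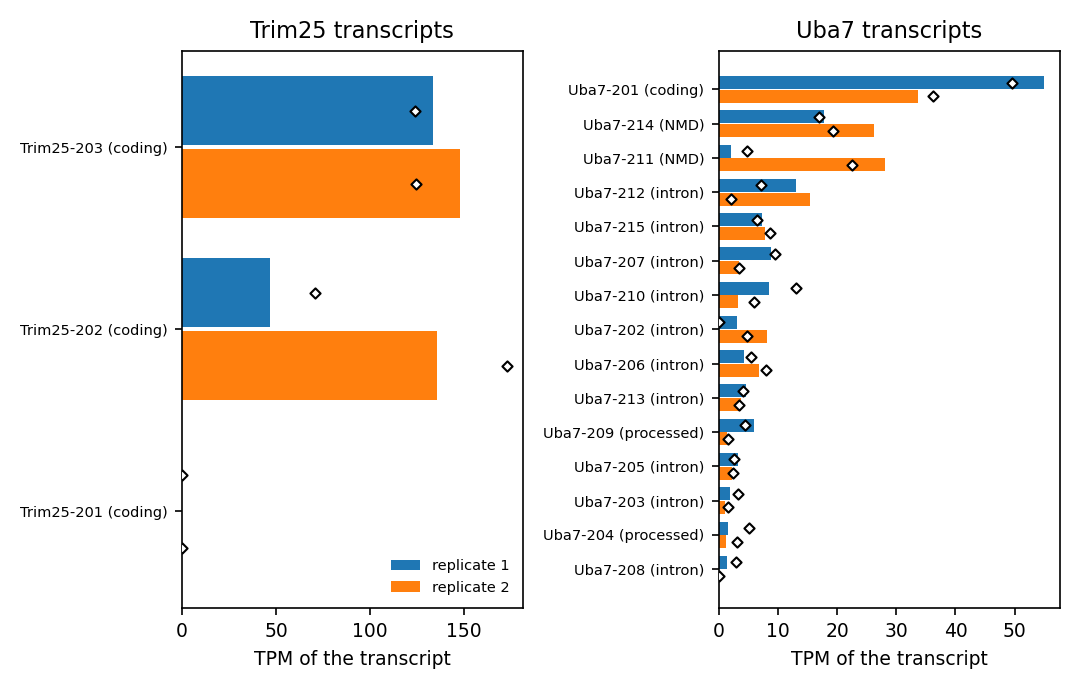
TPM of each annotated transcript of Trim25 (left) and Uba7 (right), replicate 1 above replicate 2, with bars from the first quantification and white diamonds from the second. Trim25-202 and Uba7-211 are higher in replicate 2 by both quantifications, and the coding Uba7-201 is lower there.

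Other annotated genes overlap some members. Gm45193, a processed transcript on the same strand as Herc6, shares 12.7% of the 31-base words of Herc6 and had 57 expected counts in replicate 1 and 1384 in replicate 2. That is 0.219% and 5.48% of the counts of Herc6, and reads of the pair may have been divided between them. Isg15 shared 13.1% of its 31-base words with other genes, of which the one sharing most, a pseudogene, had 0 counts in both libraries. Ube2l6 shared 15.5%, and its closest match also had 0 counts. Uba7, Usp18 and Trim25 shared 2.89%, 3.48% and 0.628%. Whether strand was used in the counting is not stated, so reads of antisense genes cannot be told apart from those of the members.

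The libraries were compared by counts scaled with TMM (trimmed mean of M-values, which scales libraries so that most genes do not move) as log2 of replicate 1 over replicate 2. A difference of 1.5-fold or more was counted. Such a comparison of 1 library with another has no residual spread, so no p-value is given, and 95% exact binomial intervals cover counting error only. Ube2l6 and Herc6 passed, that is 2 of the 6 members, against 35.8% of 12226 genes compared. Ube2l6 was lower in replicate 1, as were 16.7% of all genes by this rule, and Herc6 was higher in replicate 1, as were 19.1%. The members' share is thus near that of all genes. Their median absolute log2 ratio was 0.41, and that over all genes compared was 0.43.

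Ube2l6 had scaled counts of 8078 in replicate 1 and 17330 in replicate 2, a log2 ratio of −1.10 (interval −1.14 to −1.06), or 2.15-fold. That was larger than the difference of 90.1% of genes compared. Herc6 had scaled counts of 32231 and 21188 in replicates 1 and 2, a log2 ratio of 0.61 (interval 0.58 to 0.63), or 1.52-fold, just past the threshold. At 2-fold, Ube2l6 alone of the 6 passed, against 13.2% of genes compared, made up of 7.94% higher in replicate 1 and 5.25% higher in replicate 2. Isg15 was next on the side of replicate 1, with a log2 ratio of 0.34. Trim25 had −0.47, Usp18 −0.30 and Uba7 −0.29, each higher in replicate 2. These 4 did not reach 1.5-fold, and the direction of all 6 count ratios was the same under every scaling tried. By TPM the difference of Uba7 was small and turned between the quantifications, at 135 TPM in replicate 1 and 123 TPM in replicate 2 by the second. By total count in place of TMM the median of all genes compared moved from 0.01 to 0.19, and 72.0% of the genes past 1.5-fold were higher in replicate 1, against 53.4% by TMM.

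The ratio between the libraries moved with base composition over all genes compared, and Herc6 stands apart from the other members in its own base composition. The leading transcript of Herc6 has 39.4% G and C bases, and those of the other 5 genes have between 49.9% and 54.8%. The 490 genes within 1 percentage point of Herc6 had a median log2 ratio of 0.67, close to the 0.61 of Herc6. Genes within 1 point of Ube2l6 had a median of −0.17, and Ube2l6 itself −1.10. With the trend over GC content and length removed, the ratio of Herc6 was 0.02 and that of Ube2l6 −1.01. The ratio of Isg15 was then 0.31, against 0.34 before. Those of Trim25, Usp18 and Uba7 were −0.21, −0.17 and −0.08, against −0.47, −0.30 and −0.29 before, so they too shrank.

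**Figure D5:**
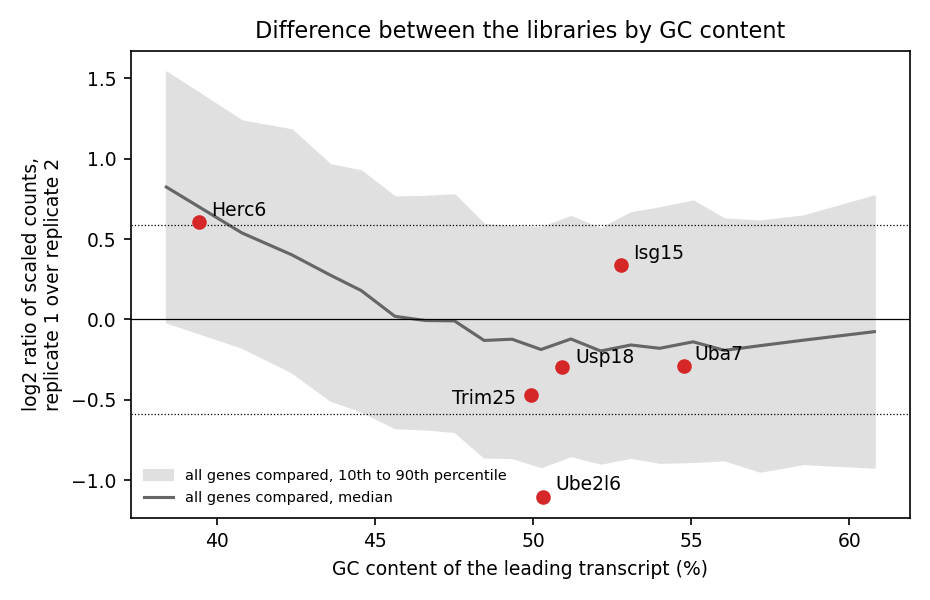
Log2 ratio of replicate 1 over replicate 2 against the GC content (percent) of each gene's leading transcript, with the median of genes in bins of GC content and their central range from the 10th to the 90th percentile, and the 6 members as labelled points. Dotted lines mark 1.5-fold. Herc6 lies close to the median of genes of its GC content, and Ube2l6 lies below the 10th percentile of genes of its own.

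The genes around the system were read in the same way. The signal that induces it runs from the interferon receptor through the kinases JAK1 and TYK2 to transcription factors such as STAT2 and IRF9, and all 9 genes of this list reached 1 TPM in both libraries. Irf7, the master regulator of type I interferon, was the highest at 1169 and 1172 TPM in replicates 1 and 2. Irf3 was the lowest at 21.8 and 19.5 TPM. None of the 9 passed 1.5-fold toward replicate 1, and 2 did toward replicate 2, among them Jak1. Over all genes compared, 19.1% passed toward replicate 1 and 16.7% toward replicate 2, so 2 of 9 is near the share of all genes.

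Partners of USP18 and TRIM25 numbered 7. The highest were Ddx58, which encodes RIG-I, at 328 and 483 TPM in replicates 1 and 2, and Stat2, which recruits USP18 to the receptor, at 357 and 420 TPM. The lowest was Skp2, a ubiquitin ligase subunit, at 1.35 and 1.27 TPM. Of these, 1 passed 1.5-fold, Ddx58, toward replicate 2, as did 16.7% of all genes compared. Another 8 genes encode the ISG15 ligase ARIH1, further USP proteases reported to cut ISG15, and LFA-1, the integrin receptor of free ISG15. Itgb2, a subunit of LFA-1, led at 231 and 234 TPM, followed by Arih1 at 63.4 and 75.8 TPM, and Usp13 had no counts. Of 7 compared, 2 were higher in replicate 1 and 2 in replicate 2 by 1.5-fold or more, beside 19.1% and 16.7% of all genes compared.

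Of 20 genes whose proteins are reported to carry ISG15, all reached 1 TPM in both libraries. The highest by RNA were Ifit1, at 2160 and 2552 TPM in replicates 1 and 2, and Mx1, at 2000.0 and 1631 TPM. Whether these RNAs give working protein in C57BL/6J cells was not measured. Plcg1, a signalling phospholipase, was the lowest at 1.42 and 1.08 TPM. None passed 1.5-fold toward replicate 1 and 7 did toward replicate 2, among them Ddx58 and Jak1, which the other lists also hold. The shares over all genes compared were 19.1% toward replicate 1 and 16.7% toward replicate 2. In the families the calls toward replicate 1 and replicate 2 were 2 and 1 of 9 E1 genes, 4 and 8 of 31 UBE2 genes, 1 and 1 of 5 HERC genes, 9 and 6 of 39 TRIM genes, 6 and 4 of 43 USP genes, and 3 and 0 of 14 modifiers. The median log2 ratio was −0.29 over the 6 members, −0.40 over the interferon signal genes and −0.34 over the substrates, against 0.01 over all genes compared.

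For each member, the 2 nearest genes in level over the 2 libraries were found among 22028 protein-coding genes, by Euclidean distance of log2(TPM + 1). For Isg15 they were Fabp5 (distance 0.15) and Ccl9 (0.19), which shows how few genes lie near its level. For Uba7 they were Gla and Atp6v1c1, both at 0.04. Ube2l6 was nearest to Irf5 (0.03) and Gstm1 (0.12), and Herc6 to the interferon-inducible GTPase gene Gbp7 (0.04) and Tma7 (0.08). Trim25 was nearest to Gas6 (0.04) and Ppp2r1a (0.06). Usp18 was nearest to another interferon-inducible GTPase gene, Igtp (0.01), at 534 and 575 TPM in replicates 1 and 2, and to Atp6v1e1 (0.02). Over only 2 libraries, nearness of this kind reflects level and the difference between the libraries and nothing more.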

How the data were processed

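For each of 2 libraries the authors deposited 1 gene table and 2 transcript tables, on mm10 with GENCODE M21 per the file headers and notes. Names of the aligner and quantifiers were not given in the sources used here; columns follow the layouts of RSEM (gene tables and first quantification) and kallisto (second quantification). The deposited expected counts are estimated reads per gene, not normalized, with shared reads divided among genes. TPM, as deposited, divides by transcript length and sums to the same total in each library. A deposited percent column gives each transcript's share of its gene's TPM. The 26345 rows of tRNAs and spike-ins, with 0.132% of counts in replicate 1 and 0.0882% in replicate 2, were left out.

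Expected counts were rounded, filtered with filterByExpr and scaled by TMM in edgeR 4.0.16 (R 4.3.3), with a prior count of 2; DESeq2 1.42.0 size factors were an alternative. With 1 group of 2 libraries, edgeR's quasi-likelihood test has no contrast and was not run. As nothing in the labels says that the biosamples were separate cultures, the spread may be technical. The computation of the ratios was checked on simulated counts with known folds. Those counts held no trend with GC content, so the check does not bear on the accuracy of the ratios given here. Tables were joined in Python 3.11.15. Promoters are from RefSeq (GRCm38.p6), and 31-base words from GENCODE M21 transcripts.

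The members and gene lists were chosen with earlier results of these data known. Named genes are the 6 members, the highest 2 and the lowest gene of each list by mean TPM, and the 2 genes nearest to each member in level. Ube2l3, Herc4, Atg7, Trim21, Trim30d, Gm45193, the neutrophil markers and genes named as past 1.5-fold were named after their values were seen. A few genes taken by the rule are not reported here. Alternatives were the second quantification, raw counts, coding transcripts alone, other scalings, no filter, log2(TPM + 1), a GC and length correction, 2-fold, and each library alone.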

Additional observations from a re-analysis of the deposited data

How the results depend on the processing

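The ratios of counts between the libraries, and of log2(TPM + 1) from the gene tables, kept their direction for all 6 members. The TPM of Uba7 did not in the second quantification, at 135 in replicate 1 and 123 in replicate 2. The number of members past 1.5-fold was 1 by counts of the second quantification, 1 with the GC and length trend removed, 1 at 2-fold and 4 by log2(TPM + 1), against 2 as reported. Genes past 1.5-fold numbered 9155 with no filter on low counts and 1613 at 2-fold, against 4374. The level of Uba7 was 129 TPM by the second quantification. After rescaling to the TPM of nuclear protein-coding genes it was 169 TPM and that of Usp18 665 TPM. The mean log2 ratio over Isg15 was −3.86 for Uba7, −2.86 for Ube2l6, −3.41 for Herc6, −3.18 for Trim25 and −1.89 for Usp18. By counts not divided by length it was −1.61, −1.48, −0.34, −0.25 and −0.30 in the same order. By coding transcripts alone it was −5.57 for Uba7 and −3.59 for Herc6. The second quantification gave 96.2% in Ube2l6-201, 82.0% in Herc6-201 and 95.4% in Usp18-201, and Isg15 a rank of 2 among modifiers. The cause of these shifts was not tested. No paired analysis was possible because there is 1 group. With 2 libraries and no other condition, depth limits little for these genes, and the number of libraries limits what can be said of their spread.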
